A study of Mus musculus with 6 samples.

Results

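The miR-17, miR-20, miR-93 and miR-106 family consists of 6 mature microRNAs (miRNAs), small RNAs that silence messenger RNAs by base pairing. Its members are mmu-miR-17-5p, mmu-miR-20a-5p, mmu-miR-20b-5p, mmu-miR-93-5p, mmu-miR-106a-5p and mmu-miR-106b-5p, written without the species prefix from here on. They were taken by exact name from the 1542 entries of a table of counts per mature miRNA, and all 6 were found and passed the filter on low counts, among 451 entries tested. Small RNA was sequenced from kidneys of 2 groups of female mice aged 17 weeks, with 3 libraries each and no treatment named in the labels. The controls were C57BL/6 mice. The other group, titled MRL/lpr and given the genotype MRL/MpJ-Fas<lpr>/J, carries the lpr mutation of Fas on the MRL background and develops spontaneous lupus-like disease with nephritis. The comparison asks which kidney miRNAs differ between lupus-prone and control mice. Genetic background, the Fas mutation and disease differ between the groups together and cannot be told apart. Nothing in the labels states that the libraries come from different animals, and the p-values therefore reflect only how much these samples vary, which may be technical.

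Members of the family are recognised by their seed, the stretch near the 5′ end that pairs with target messenger RNAs, and so can bind overlapping sets of targets, among them the cell-cycle inhibitor Cdkn1a. The hairpins lie in paralogous clusters that are each copied as 1 primary transcript. The miR-17-92 cluster is driven by MYC and E2F factors in dividing cells, and its forced expression in lymphocytes of mice causes lymphoproliferation and autoimmunity. In the developing kidney it is needed in nephron progenitors. The miR-106b-25 cluster is made with Mcm7, a gene of DNA replication licensing, and the X-linked miR-106a-363 cluster is usually weakly expressed in adult tissue.

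The 6 mature sequences (RefSeq, GRCm38.p6) are shown because the read counts of the members can only be told apart by the bases outside the seed. They are written 5′ to 3′, with the seed (bases 2 to 8) in capitals.
miR-17-5p: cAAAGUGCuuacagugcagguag
miR-20a-5p: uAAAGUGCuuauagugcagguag
miR-93-5p: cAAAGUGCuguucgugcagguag
miR-106b-5p: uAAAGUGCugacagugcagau
miR-20b-5p: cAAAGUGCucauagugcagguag
miR-106a-5p: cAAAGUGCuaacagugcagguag
All 6 carried the seed AAAGUGC. Of the first 21 bases, 15 were identical in every member, and the others lay at base 1, bases 10 to 13 and base 20, counted from 1 at the 5′ end. With the base of miR-17-5p written first, miR-106a-5p differed from it only by U10A. miR-20a-5p differed from miR-17-5p by C1U and C12U, and miR-20b-5p by U10C and C12U. miR-93-5p differed from it at 4 bases, by U10G, A11U, C12U and A13C. Among 1679 mature mouse miRNAs in the RefSeq table, 7 carried this seed, and the seventh, miR-6383, was not an entry of the count table.

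The cluster mates carry other seeds, shown here by 5 of them.
miR-18a-5p: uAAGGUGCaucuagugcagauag
miR-19b-3p: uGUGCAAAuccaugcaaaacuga
miR-92a-3p: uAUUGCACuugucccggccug
miR-25-3p: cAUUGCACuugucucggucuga
miR-363-3p: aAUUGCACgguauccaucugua
The miR-18 seed differs from the family seed, while miR-25-3p, miR-92a-3p and miR-363-3p share the seed AUUGCAC. miR-19b-3p and miR-92a-3p are each made at 2 loci, on chromosomes 14 and X, so their counts belong to 2 clusters at once.

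The Mir17 hairpin (GRCm38.p6, chromosome 14, 115043671 to 115043754, plus strand) and the Mir20a hairpin (115044157 to 115044263) both overlap exons of the long noncoding RNA Mir17hg. The Mir106b hairpin (chromosome 5, 138165737 to 138165818, minus strand) lies in an intron of Mcm7. The Mir93 hairpin (138165523 to 138165610, minus strand) is within Mcm7 too and overlaps an exon of at least 1 of its annotated transcripts. The Mir106a hairpin (chromosome X, 52742503 to 52742567, minus strand) and the Mir20b hairpin (52742113 to 52742192) overlap no host gene in GENCODE M21. The clusters span 836 bases on chromosome 14, 498 on chromosome 5 and 875 on chromosome X.

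The libraries held 5259528 to 6773829 counts, and the 6 members together took 0.242% to 0.340% of them. All 9 kidney epithelium miRNAs listed as tissue markers were detected, with a summed level of 104281 to 148982 CPM in C57BL/6 and 134657 to 149772 CPM in MRL/lpr (CPM, TMM-scaled counts on a common total for all libraries). C57BL/6 replicate 2 stood apart. It had the lowest kidney epithelium sum of all libraries, 104281 CPM, and the highest sum of 4 mesenchymal miRNAs, 42769 CPM against 26563 to 36292 CPM in the others. Of these 4, 3 were higher there than in both other controls. C57BL/6 replicate 2 also had the lowest sum of 2 endothelial miRNAs among controls, 69362 CPM against 82924 and 78863 CPM, within the MRL/lpr range of 58064 to 73074 CPM. Its 7 leukocyte miRNAs summed to 48672 CPM, against 28747 and 30508 CPM in C57BL/6 replicates 1 and 3 and 26537 to 28633 CPM in MRL/lpr, and 6 of the 7 were higher there than in both other controls. Its 3 myeloid miRNAs summed to 1199 CPM against 249 to 440.3 CPM in the other libraries, and its 4 erythroid miRNAs to 594 CPM against 2841 to 4306 CPM. No marker list had a member at 0 in every library. A sum follows its most abundant miRNAs, and single miRNAs can go another way. By the edgeR test described below, 1 of the 7 leukocyte miRNAs was called higher in MRL/lpr and 0 lower. Of the 9 kidney epithelium miRNAs, 2 were called higher and 0 lower, and the other lists had no call. Over all tested miRNAs 4.21% were called higher and 2.00% lower. In whole kidney, fewer cells of a type and less RNA per cell cannot be told apart.

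No member of the family passed the test between strains (0 of 6, with 0 higher and 0 lower in MRL/lpr) at an adjusted p under 0.05, by edgeR's quasi-likelihood test with Benjamini-Hochberg adjustment over all 451 miRNAs. Of all tested miRNAs 6.21% were called, 4.21% higher and 2.00% lower. These 28 calls became 5 without MRL/lpr replicate 3 and 54 without C57BL/6 replicate 2. None of the 6 had an unadjusted p under 0.05, against 20.8% of all miRNAs, and DESeq2 and limma-voom called none. The median log2 fold change of the 6 (MRL/lpr over C57BL/6) was 0.16, beside -0.027 over all miRNAs tested. Fitted values were above 0 for 5 members, against 48.6% of all tested miRNAs, and below 0 for miR-93-5p. Both values depended on single libraries. The median was 0.035 without C57BL/6 replicate 1 and 0.063 without replicate 3, with 3 members above 0 in each fit. It was 0.31 without C57BL/6 replicate 2, with 5 above 0. Without MRL/lpr replicate 2 or 3, 4 members were above 0. Fitted folds ran from 0.865 to 1.57, and the 95% intervals of the 6 lay between 0.667-fold and 2.49-fold.

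In every library miR-93-5p was the most abundant member, miR-20a-5p came next and miR-106a-5p was last. The members are 21 to 23 bases long and a read covers a whole miRNA, so levels were compared without a length correction, although adapter ligation favours some miRNA ends and PCR copies may be counted. Over the 6 libraries miR-93-5p had 1905 to 2776 CPM, miR-20a-5p 185 to 242 CPM and miR-106a-5p 10.1 to 22.0 CPM, and none of these ranges touched that of a neighbour. Between them, miR-17-5p (107 to 158 CPM), miR-20b-5p (99.8 to 167 CPM) and miR-106b-5p (67.6 to 109.8 CPM) overlapped, and their order changed from library to library. By mean level miR-93-5p ranked 48 among the 451 tested miRNAs and miR-106a-5p ranked 270.

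**Figure D1:**
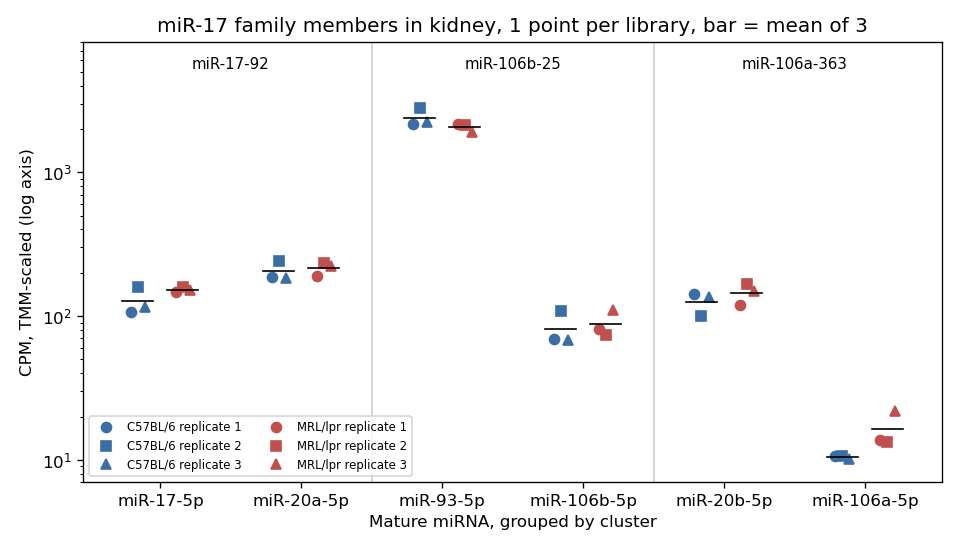
CPM (TMM-scaled, log axis) of the 6 members in each of 3 C57BL/6 (blue) and 3 MRL/lpr (red) libraries, grouped by cluster, with horizontal bars at the means. miR-93-5p lies between 1905 and 2776 CPM, miR-106a-5p between 10.1 and 22.0 CPM, and blue and red points overlap for 4 of the 6 members.

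Within the miR-17-92 cluster, miR-17-5p, its first hairpin's guide arm, had 107, 158 and 116 CPM in C57BL/6 replicates 1, 2 and 3 and 147, 158 and 151 CPM in MRL/lpr replicates 1, 2 and 3. The MRL/lpr libraries lay close together, and the highest control, replicate 2, was as high as the highest of them. Means were 127 ± 27.4 and 152 ± 5.66 CPM (SD, n = 3), with a log2 fold change of 0.26 ± 0.22 SE (95% interval -0.23 to 0.75, edgeR adjusted p = 0.564). miR-20a-5p, from the same transcript, had 187, 242 and 185 CPM in C57BL/6 and 191, 234 and 222 CPM in MRL/lpr. Here too control replicate 2 was the highest of all 6 libraries, and the groups overlapped. Its means were 205 ± 32.6 and 216 ± 22.1 CPM (SD, n = 3), and its log2 fold change was 0.076 ± 0.21 SE (-0.39 to 0.54, edgeR adjusted p = 0.849).

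In the miR-106b-25 cluster, miR-93-5p, which alone made up most of the family's counts, had 2168, 2776 and 2236 CPM in C57BL/6 and 2162, 2144 and 1905 CPM in MRL/lpr. Every MRL/lpr library was below every control, but the nearest pair, replicate 1 of each strain, lay at 2162 and 2168 CPM. Means were 2394 ± 333 and 2071 ± 143 CPM (SD, n = 3), with a log2 fold change of -0.21 ± 0.17 SE (-0.58 to 0.17, edgeR adjusted p = 0.531). miR-106b-5p, encoded upstream of it in the same Mcm7 transcript, had 69.2, 107.6 and 67.6 CPM in C57BL/6 and 81.6, 73.9 and 109.8 CPM in MRL/lpr. Its high values were in 1 library of each strain, and the means of 81.5 ± 22.7 and 88.4 ± 18.9 CPM (SD, n = 3) differed by less than either SD (log2 fold change 0.12 ± 0.27 SE, -0.48 to 0.72, edgeR adjusted p = 0.818).

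In the X-linked miR-106a-363 cluster, miR-20b-5p had 142, 99.8 and 135 CPM in C57BL/6 and 119, 167 and 148 CPM in MRL/lpr. Unlike the 4 members above, it was lowest in control replicate 2. Means were 126 ± 22.9 and 145 ± 24.5 CPM (SD, n = 3), with a log2 fold change of 0.20 ± 0.23 SE (-0.32 to 0.72, edgeR adjusted p = 0.661). miR-106a-5p, the least abundant member, had 52, 66 and 65 counts in C57BL/6 and 97, 69 and 133 counts in MRL/lpr, or 10.6, 10.6 and 10.1 CPM and 13.7, 13.4 and 22.0 CPM. All 3 MRL/lpr libraries were above all 3 controls, with replicate 3 the highest. It had the greatest fitted fold of the family, 1.57-fold (log2 fold change 0.65 ± 0.30 SE, -0.024 to 1.32), and did not pass (edgeR adjusted p = 0.251, unadjusted p = 0.0573). When MRL/lpr replicate 3 was left out, the fitted log2 fold change was 0.40 (edgeR adjusted p = 0.694).

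At these counts the precision of miR-106a-5p is limited. The exact 95% Poisson interval, which covers counting error only, was 7.95 to 13.95 CPM in C57BL/6 replicate 1 and 10.4 to 16.9 CPM in MRL/lpr replicate 2, so those libraries could not be told apart by depth alone. In MRL/lpr replicate 3 it was 18.4 to 26.1 CPM, above the intervals of all other libraries, MRL/lpr included. The interval of MRL/lpr replicate 1, 11.1 to 16.7 CPM, overlapped those of the controls, as did that of MRL/lpr replicate 2. miR-106a-5p and miR-17-5p differ at 1 base, and the sources used here do not say how reads matching more than 1 entry were counted. The ratio of their counts (miR-106a-5p over miR-17-5p) ran from 0.067 to 0.146 over the libraries. Summed into 1 entry, the pair had a log2 fold change of 0.29 ± 0.21 SE (edgeR adjusted p = 0.493), an alternative added after the data were seen.

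The groups did not overlap for 2 of the 6 members, miR-93-5p on the lower side and miR-106a-5p on the higher side in MRL/lpr. Over all tested miRNAs the groups did not overlap for 28.8%. Without C57BL/6 replicate 2, the library with the high leukocyte and myeloid sums, the log2 fold changes were 0.46 for miR-17-5p (edgeR adjusted p = 0.164), 0.23 for miR-20a-5p, 0.39 for miR-106b-5p, 0.078 for miR-20b-5p, 0.68 for miR-106a-5p and -0.070 for miR-93-5p. No member passed without it. The miR-17-5p value moved the other way, to 0.10 and 0.16, without C57BL/6 replicates 1 and 3 (edgeR adjusted p = 0.881 and 0.778). The part of those other cell types in the members' levels was not tested.

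Summed by cluster, the members did not pass either. Fold changes of sums were fitted with scaling factors computed after summing, while CPM sums use those computed before. Fold changes and CPM means therefore do not match exactly. edgeR called 0 of 3 cluster sums, against 6.70% of the entries of that table, with 0 at an unadjusted p under 0.05, and DESeq2 and limma-voom called 0. The miR-17-92 members summed to 332 ± 59.7 CPM in controls and 368 ± 27.3 CPM in MRL/lpr mice (SD, n = 3), a log2 fold change of 0.19 ± 0.20 SE (-0.26 to 0.64, edgeR adjusted p = 0.626). The miR-106b-25 members summed to 2475 ± 356 and 2159 ± 125 CPM (log2 fold change -0.15 ± 0.17 SE, -0.53 to 0.23, edgeR adjusted p = 0.649). For the miR-106a-363 members the sums were 136 ± 22.8 and 161 ± 25.4 CPM (log2 fold change 0.28 ± 0.22 SE, -0.21 to 0.78, edgeR adjusted p = 0.529). With 1 library left out, these log2 fold changes ran from 0.036 to 0.33 for miR-17-92 (lowest without C57BL/6 replicate 1, highest without replicate 2), from -0.30 to -0.048 for miR-106b-25 (the same 2 libraries) and from 0.13 to 0.39 for miR-106a-363 (without MRL/lpr replicates 2 and 1). With upper-quartile scaling they were 0.057, -0.29 and 0.15. All 6 members together had 2684, 3395 and 2750 CPM in C57BL/6 and 2714, 2791 and 2559 CPM in MRL/lpr. Control replicate 2 was again the highest, and the other 5 libraries lay between 2559 and 2791 CPM. The fitted log2 fold change of the whole family was -0.082 ± 0.16 SE (-0.44 to 0.28, edgeR adjusted p = 0.789; 6.73% of entries called in that table), and the exact two-sided permutation test of the summed CPM gave p = 0.5. This sign turned when only library size was used for scaling (0.012) and when C57BL/6 replicate 2 was left out (0.0038).

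**Figure D2:**
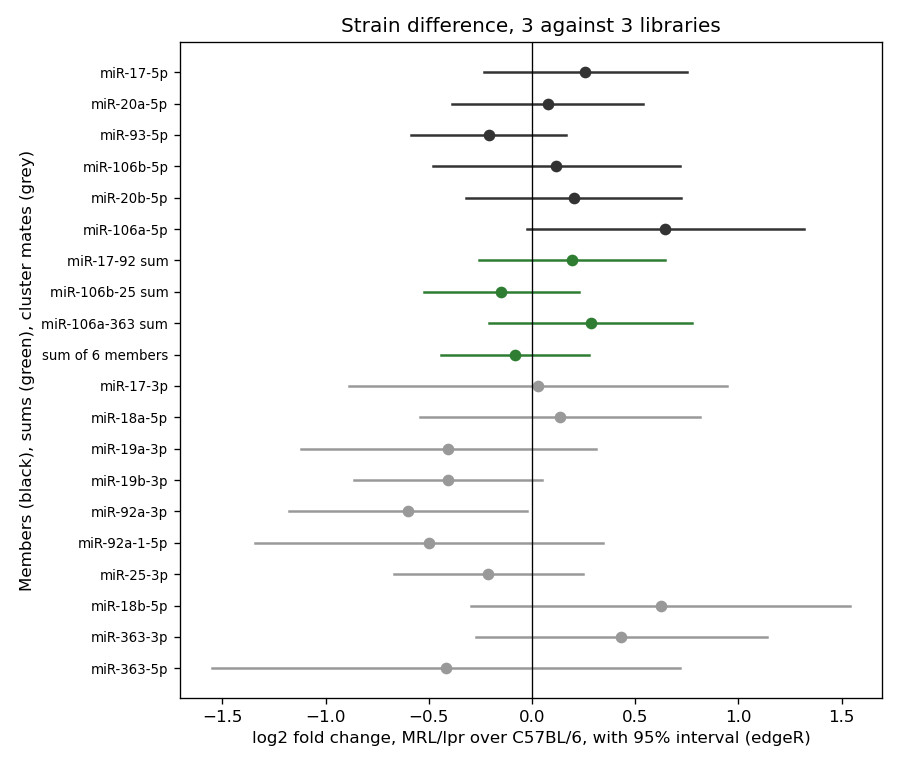
Fitted log2 fold change (MRL/lpr over C57BL/6, dots) with its 95% interval (lines) for the 6 members (black), the 3 cluster sums and the sum of 6 members (green) and the 10 tested cluster mates (grey). The intervals of all members and sums include 0, as do those of the mates other than miR-92a-3p, which did not pass after adjustment.

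The share of the clusters within the family was compared as 1 value per library, which does not depend on scaling. The miR-106b-25 members made up 83.4%, 84.95% and 83.8% of the family's counts in controls and 82.7%, 79.5% and 78.8% in MRL/lpr. Of these, miR-93-5p alone made up 81.3% ± 0.503 in controls and 77.0% ± 2.61 in MRL/lpr (SD, n = 3). The other member, miR-106b-5p, went the other way, from 2.74% ± 0.382 to 3.32% ± 0.862. The lower share of the cluster thus lay in miR-93-5p. The miR-17-92 members made up 10.9%, 11.8% and 10.9% in controls and 12.4%, 14.04% and 14.6% in MRL/lpr. For neither cluster did these values overlap between strains. Shares are parts of 1 whole, so these and the log2 ratio of the same clusters below are not separate results. Among single tested miRNAs the groups did not overlap for 28.8%. Means were 84.03% ± 0.829 and 80.3% ± 2.08 for miR-106b-25, and 11.2% ± 0.495 and 13.7% ± 1.11 for miR-17-92 (SD, n = 3). Each gave an exact two-sided permutation p of 0.1, the smallest that 3 against 3 libraries can give (adjusted p = 0.233 over the 7 values compared), so this design cannot pass the threshold. The miR-106a-363 share was 4.75% ± 1.31 in C57BL/6 and 6.00% ± 0.982 in MRL/lpr, with overlapping values (exact permutation p = 0.3, adjusted p = 0.42).

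The log2 ratio of miR-17-92 to miR-106b-25 counts was -2.93, -2.85 and -2.94 in controls and -2.73, -2.50 and -2.43 in MRL/lpr. All MRL/lpr libraries were above all controls, with a difference of means of 0.35 (exact permutation p = 0.1, adjusted p = 0.233). It was 0.38 without C57BL/6 replicate 2. The ratio of miR-17-92 to miR-106a-363 overlapped between strains (1.28 ± 0.502 and 1.20 ± 0.132, SD, n = 3; exact permutation p = 1), and the difference turned from -0.082 to 0.21 without C57BL/6 replicate 2. The ratio of miR-106b-25 to miR-106a-363 was 4.19 ± 0.454 and 3.76 ± 0.286 (SD, n = 3; exact permutation p = 0.3, adjusted p = 0.42).

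**Figure D3:**
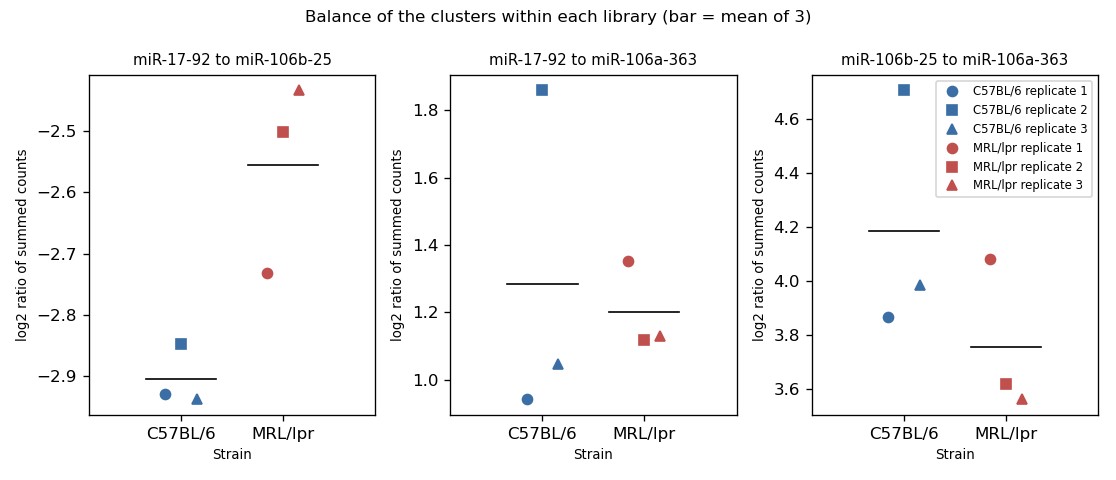
log2 ratio of the summed counts of the members of 2 clusters in each library, with strain on the horizontal axis, blue for C57BL/6, red for MRL/lpr and bars at the means of 3. In the ratio of miR-17-92 to miR-106b-25 the 3 MRL/lpr points (-2.73 to -2.43) lie above the 3 controls (-2.94 to -2.85), while the other ratios overlap and C57BL/6 replicate 2 is the highest point of both.

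Members of 1 cluster come from 1 transcript, and their ratios within a library were described without a test. miR-93-5p outnumbered miR-106b-5p by 30.1 ± 3.81 to 1 in C57BL/6 and 24.3 ± 6.13 to 1 in MRL/lpr (SD, n = 3), with overlapping values from 17.4 to 33.1. miR-20b-5p outnumbered miR-106a-5p 12.1 ± 2.29 and 9.29 ± 2.92 to 1, also with overlap. miR-20a-5p and miR-17-5p were nearer to each other, at 1.75, 1.53 and 1.60 in controls and 1.30, 1.48 and 1.48 in MRL/lpr (miR-20a-5p over miR-17-5p). All MRL/lpr values of this last ratio were below all controls. How often other ratios of this kind do not overlap was not computed.

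The other miRNAs of the clusters numbered 22 by list, of which 19 were in the table and 10 passed the filter. None of the 10 passed the test (0 higher and 0 lower, edgeR; 1 with an unadjusted p under 0.05; 0 by DESeq2 and limma-voom). Their median log2 fold change was -0.31, with 4 above 0 and 6 below, beside 0.16 for the members and -0.027 for all tested miRNAs. With no filter on low counts the median over 19 mates was 0.21, so its sign rests on which mates are counted. No median is given by cluster, since miR-19b-3p and miR-92a-3p belong to 2 of them. The 1 tested mate in miR-106b-25, miR-25-3p, was at -0.21.

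miR-19b-3p, the most abundant mate, had 1839, 2626 and 1936 CPM in C57BL/6 and 1827, 1302 and 1698 CPM in MRL/lpr (log2 fold change -0.41 ± 0.20 SE, edgeR adjusted p = 0.284). All MRL/lpr libraries were below all controls, the nearest pair at 1827 and 1839 CPM. The groups did not overlap for 2 of the 10 tested mates, against 28.8% of all tested miRNAs. miR-92a-3p, an abundant mate with effects on endothelial cells, had 1120, 1348 and 1776 CPM in C57BL/6 and 730, 1271 and 797 CPM in MRL/lpr. The groups overlapped through MRL/lpr replicate 2, and it was the mate with an unadjusted p under 0.05 (log2 fold change -0.60 ± 0.26 SE; adjusted p = 0.216, edgeR). miR-25-3p had 1058 ± 238 and 913 ± 71.03 CPM (SD, n = 3; edgeR adjusted p = 0.586). On the X-linked cluster, miR-363-3p had 9.76 ± 2.43 and 13.1 ± 2.53 CPM and miR-18b-5p 2.95 ± 0.534 and 4.55 ± 1.72 CPM (SD, n = 3), with edgeR adjusted p-values of 0.488 and 0.419.

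Set against miR-17-5p within each library, miR-19b-3p was present at 17.2, 16.6 and 16.7 to 1 in controls and 12.4, 8.24 and 11.3 to 1 in MRL/lpr. The controls were nearly alike, replicate 2 included, and the MRL/lpr values were all lower. This ratio was not tested, and since miR-19b-3p is made at 2 loci it mixes 2 clusters. Among single tested miRNAs the groups did not overlap for 28.8%, and no such share was computed for ratios. The ratio of miR-25-3p to miR-93-5p, both of the Mcm7 cluster, was 0.441 ± 0.0695 in controls and 0.443 ± 0.0544 in MRL/lpr (SD, n = 3).

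**Figure D4:**
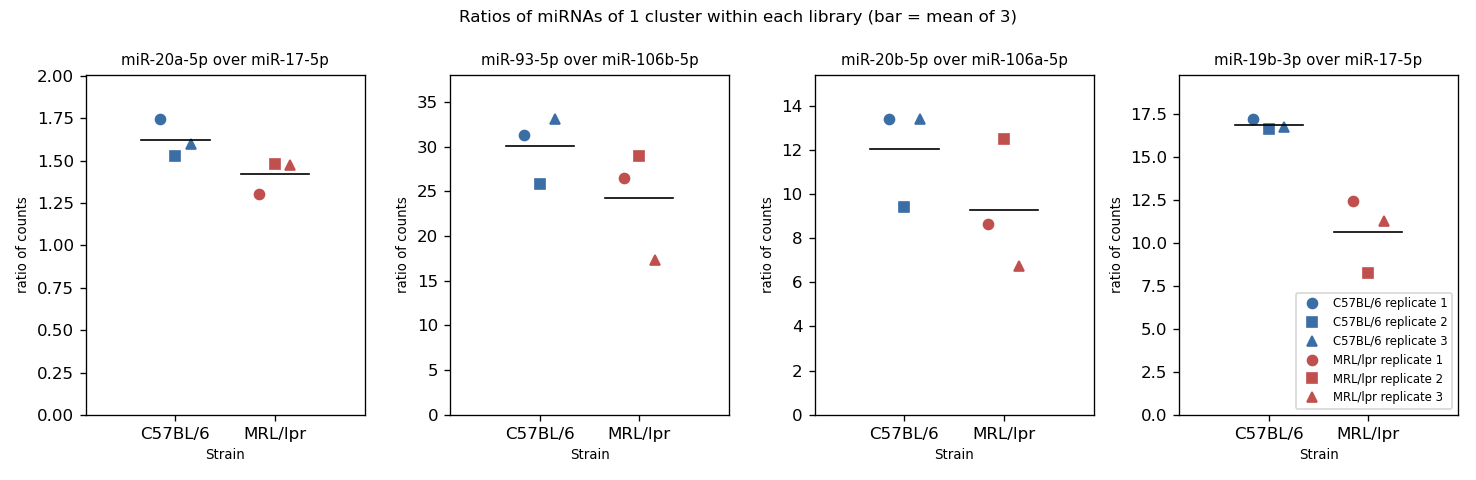
Ratio of the counts of 2 miRNAs in each library (vertical axes from 0, strain on the horizontal axis, blue C57BL/6, red MRL/lpr, bars at the means of 3). Each pair is of 1 cluster, except that miR-19b-3p is also made in the X-linked cluster. miR-20a-5p over miR-17-5p and miR-19b-3p over miR-17-5p do not overlap between strains, the latter with controls at 16.6 to 17.2 and MRL/lpr libraries at 8.24 to 12.4, while the other ratios overlap.

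Nearly all reads of the member hairpins came from the 5p arm. The 5p arm took 96.4% of the counts of both arms for miR-17, 99.5% for miR-20a, 99.9% for miR-93, 99.5% for miR-106b and 99.4% for miR-106a, summed over libraries, and the 3p arm of miR-20b was not an entry of the table. The arm ratio could be tested for miR-17 and miR-93, whose 3p arms averaged at least 10 counts. On the scale of log2((5p CPM + 1)/(3p CPM + 1)) it was 4.43 ± 0.230 in C57BL/6 and 4.61 ± 0.145 in MRL/lpr for miR-17 (SD, n = 3; limma adjusted p = 0.760). For miR-93 it was 10.05 ± 0.316 and 9.46 ± 0.339 (difference -0.59 ± 0.27 SE, limma adjusted p = 0.333, unadjusted p = 0.0588), resting on 4 to 16 counts of miR-93-3p per library. Of 111 hairpins tested, limma called 0 (0%), and 14 had an unadjusted p under 0.05.

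The summed family varied by 0.41 on the log2 scale over the 6 libraries. miR-93-5p took 74.5% to 81.8% of the sum, so the summed profile is mainly that of miR-93-5p. Among 143 named miRNAs outside the clusters with a mean of at least 100 CPM, 5 had the profiles nearest to the summed profile. These were miR-183-5p, miR-181b-5p, miR-196a-5p, miR-181c-5p and let-7i-5p. Their root mean square differences from the centred log2 profile of the family were 0.063, 0.114, 0.120, 0.128 and 0.150, against a median of 0.262 over the 143. None of the 5 passed the test between strains, with log2 fold changes from -0.24 for let-7i-5p to 0.049 for miR-196a-5p.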

How the data were processed

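The authors deposited raw counts, whole numbers for each mature miRNA, with 1 column per library and no normalization. Per the labels' protocols, TRIzol RNA from kidney was ligated to adapters, amplified by PCR, size-selected on gels and sequenced as DNA nanoballs. Bowtie2, DESeq2 and GRCm38.p6 are named, with no version or role, in the submitters' processing notes; the sources used here do not say how reads matching more than 1 miRNA were assigned. Whether PCR copies were removed is not stated. Columns were matched to samples by strain, age and replicate number.

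Counts were filtered by filterByExpr (minimum count 10, minimum total 15), scaled by TMM and tested for strain in edgeR 4.0.16 (R 4.3.3, limma 3.58.1) over all 451 entries kept, with Benjamini-Hochberg adjustment, and again with members summed by cluster. Standard errors came from the coefficient and its F statistic. Shares and cluster ratios were compared by exact two-sided permutation, and arm ratios with limma (pseudocount 1 CPM). The tests were tried on simulated counts first. There edgeR called 37 of 97 true 2-fold changes (38.1%), 84 of 91 true 4-fold changes (92.3%) and 1 of 241 unchanged entries. Changes of 2-fold or less would therefore often be missed. Within each group the libraries were no copies of each other (chi-square over degrees of freedom 123 to 726). Named miRNAs were the members, for each cluster the 2 most abundant mates and any past the threshold, and the 5 nearest profiles; miR-18b-5p and miR-363-3p are the X-linked mates by abundance. Members, lists and tests were chosen with earlier results of these data known. The alternatives tried were scaling by RLE, upper quartile or library size, no filter or 10 CPM in 3 libraries, DESeq2 1.42.0, limma-voom, a replicate block and each library left out. Sequences are RefSeq's, and host genes GENCODE M21's. Figures were drawn with matplotlib 3.10.9.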

Additional observations from a re-analysis of the deposited data

How the results depend on the processing

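The count of members called stayed at 0 under all 14 alternatives, as did those of cluster sums and cluster mates. The miR-17 arm ratio did not pass in the 10 alternatives that tested it, nor did that of miR-93 in the 7 that did. The latter was not tested without C57BL/6 replicate 3, MRL/lpr replicate 1 or MRL/lpr replicate 3, and a minimum of 100 counts for each arm left no member hairpin. The log2 fold changes of miR-17-5p, miR-20b-5p and miR-106a-5p stayed above 0 and that of miR-93-5p below 0 throughout. That of miR-20a-5p fell to -0.032 and -0.031 when control replicates 1 and 3 were left out and to -0.012 without MRL/lpr replicate 2 (range -0.032 to 0.23). That of miR-106b-5p fell to -0.038 and -0.040 when control replicates 1 and 3 were left out and to -0.040 without MRL/lpr replicate 3 (range -0.040 to 0.39). Leaving out each library in turn, the family sum ran from -0.22 to 0.0038 and the summed CPM difference from -487 to 6.60 CPM (6.60 without C57BL/6 replicate 2); with library size alone they were 0.012 and 23.7 CPM, as this scaling moved the median of all tested miRNAs from -0.027 to 0.12. The log2 ratio difference of miR-17-92 to miR-106a-363 ran from -0.25 to 0.21 with a library left out. Mates turned sign as well: miR-17-3p ran from -0.23 to 0.49 (-0.23, -0.15 and -0.045 without C57BL/6 replicates 1 and 3 and MRL/lpr replicate 3), miR-18a-5p from -0.070 to 0.51 (-0.070 and -0.032 without C57BL/6 replicates 1 and 3) and miR-363-5p from -0.72 to 0.19 (0.19 without C57BL/6 replicate 1). The cause of these turns was not tested. With the replicate number as a block no member passed (smallest edgeR adjusted p = 0.333) and 13 miRNAs in all were called, against 28. Deviations of same-numbered libraries from their group means had correlations of -0.37, 0.034 and -0.37 across miRNAs for numbers 1, 2 and 3. Differently numbered pairs ran from -0.18 (C57BL/6 replicate 3 with MRL/lpr replicate 2) to 0.39 (C57BL/6 replicate 3 with MRL/lpr replicate 1). Such deviations sum to 0 within a group, which ties the correlations to each other. They cannot decide whether libraries were paired. The 52 to 133 counts of miR-106a-5p give it a wide counting error, beside the spread between libraries.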
